A study of Xenopus laevis with 30 samples.

Results

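The core histones H2A, H2B, H3 and H4 and their variants were followed in embryos of Xenopus laevis, the African clawed frog, in a series on the regeneration of twin embryos from bisected ones. A gene belonged to the group when its symbol, or for a model ID its closest human symbol, began with hist and a number followed by h2a, h2b, h3 or h4, or with h2af, h2bf or h3f, and linker histones were left out. This rule used names alone and no measured value. It found 84 of 16673 genes at stage 10.5 and 85 of 15596 at stage 12, with 83 in both tables and 86 in either. Poly(A) RNA of the Nasco strain was sequenced in 30 libraries, from left, right, dorsal and ventral half-embryos and from whole embryos, at stage 10.5 (early gastrula) and stage 12 (late gastrula), with 3 libraries per group and stage. The cut was made at stage 8, the blastula, in Barth's solution, and the cut embryos then grew in a dilution of that medium. Embryos were kept in dilute Marc's Modified Ringer, so cutting and medium cannot be told apart wherever half-embryos are set against whole embryos. The labels name neither the number of embryos in a library nor separate clutches for the replicates, and p-values therefore cover the spread among these libraries, part of which may be technical.

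Core histones form the protein spool around which DNA is wrapped. In animals most of them are encoded by multicopy gene clusters whose messages end in a stem-loop instead of a poly(A) tail. These messages are made and kept in S phase with the help of the stem-loop binding protein SLBP and the coactivator NPAT. Replacement variants are also made outside S phase, mostly from messages that carry a poly(A) tail. Among them, H3.3 and H2A.Z enter chromatin at active genes and regulatory regions, H2A.X is the form phosphorylated at DNA breaks, and macroH2A is linked with silent chromatin. A frog egg stores histone messages and proteins for the rapid cleavage divisions. In the deposited tables, the genes whose symbol starts with hist are called hist-named here, and those named h2af or h3f are called variants. Because poly(A) RNA was selected, a hist-named value covers only messages that passed that selection.

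Libraries held 3567902 to 5863177 reads in gene models at stage 10.5 and 2116679 to 5130915 at stage 12. Half-embryo libraries were deeper than whole-embryo libraries at stage 10.5, at 3855128 to 5863177 reads against 3567902 to 3783017. At stage 12 they held 2549735 to 5130915 reads, against 2116679 to 2954286 in whole embryos. Histone genes took 0.607% to 0.800% of reads in listed genes at stage 10.5 and 0.637% to 0.795% of them at stage 12. Group labels were checked on markers of the cut: 21 of 22 genes of the dorsal organizer list were higher in dorsal than in ventral half-embryos at stage 10.5 and 22 of 22 at stage 12, and 15 of 18 and 14 of 18 genes of the ventral list were lower. In these bulk samples, fewer cells of a type and less RNA per cell cannot be told apart. Many histone genes are near-identical copies, and the sources used here do not say how reads that match several copies were counted. The kit keeps no strand. The value of any single copy is therefore uncertain.

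A few variant genes carried most of the summed RPKM of histone genes in these poly(A) libraries. The 14 variants made up 79.8% of the summed RPKM of the group at stage 10.5, and the 70 hist-named genes 20.2%. At stage 12 the 16 variants made up 86.1% and the 69 hist-named genes 13.9%. RPKM is scaled by the length of the gene model, and these lengths were unlike, at 363 to 2037 bases among the H3.3 models of stage 10.5. Shares and ranks therefore also depend on how much of a message each model covers, which was not tested. The shares do not cover messages without a poly(A) tail that the selection left out. They also depend on how reads that match several near-identical copies were counted, which the sources used here do not say.

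The H2A.Z genes h2afz.L and h2afz.S stood highest among the H2A variants. Gene h2afz.L averaged 1343 RPKM over the 15 libraries of stage 10.5 and 1573 at stage 12, which ranked it number 14 and number 23 of the listed genes. Its homeolog h2afz.S averaged 783 and 875 RPKM. The suffixes L and S mark the copies on the long and the short chromosome of a homeologous pair. At stage 10.5 h2afz.L lay at 1205 to 1600 RPKM (median 1339) in half-embryo libraries, against 1308, 1082 and 1216 in whole embryos, and the ranges overlapped. The remaining H2A variants were far lower. Genes h2afx.L and LOC100487455.1, both closest to human H2A.X, averaged 18.5 and 21.0 RPKM at stage 10.5. The pair h2afv.L and h2afv.S, of the H2A.V form of H2A.Z, averaged 6.94 and 7.01 RPKM there. Both macroH2A models, Xelaev18037160m and Xelaev18034907m, were listed at stage 12 alone, at 1.62 and 1.56 RPKM. The lowest average listed at stage 10.5 was 1 RPKM, so a model missing there may lie just below that level.

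Histone H3.3 was represented by 6 models, all closest to human H3F3B. Together they made up 47.3% of the group's summed RPKM at stage 10.5 and 50.3% at stage 12. Their means ran from 161 to 1019 RPKM at stage 10.5 and from 199 to 1497 at stage 12. Xelaev18045270m was the highest, at 1019 and 1497 RPKM on a model of 363 bases. Xelaev18044072m came next, at 831 and 663 RPKM on a model of 1860 bases.

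Hist-named genes had a median of 7.52 RPKM at stage 10.5 and 6.55 at stage 12, with 43 of 70 and 44 of 69 below 10 RPKM. Counting depth was low for them: a library held a median of 17 reads of such a gene at stage 10.5 and of 10 at stage 12, and of 741 and 469 reads of a variant. Many of their models hold little more than a coding sequence. Of 14 H3 models at stage 10.5, 6 were 411 bases long, 8 of 14 H4 models were 312 bases, and 7 of 22 H2B models were 381 bases. The H2A models varied more, with 3 of 20 at their commonest length of 393 bases and a median length of 595 bases.

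The 2 highest hist-named genes of each family are given in turn. For H2A they were hist1h2aa.L, at 194 RPKM at stage 10.5 and 87.6 at stage 12, and LOC100488074.1, at 48.6 and 43.9. For H2B they were LOC733561.S, at 302 and 209 RPKM, and LOC100497082.1, at 89.0 and 61.0. Among the H3 genes Xelaev18004100m averaged 82.4 and 66.9 RPKM, and Xelaev18001465m 18.7 and 14.2. The H4 genes were Xelaev18004387m, at 40.9 and 30.1 RPKM, and Xelaev18000726m, at 22.1 and 18.2.

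**Figure D1:**
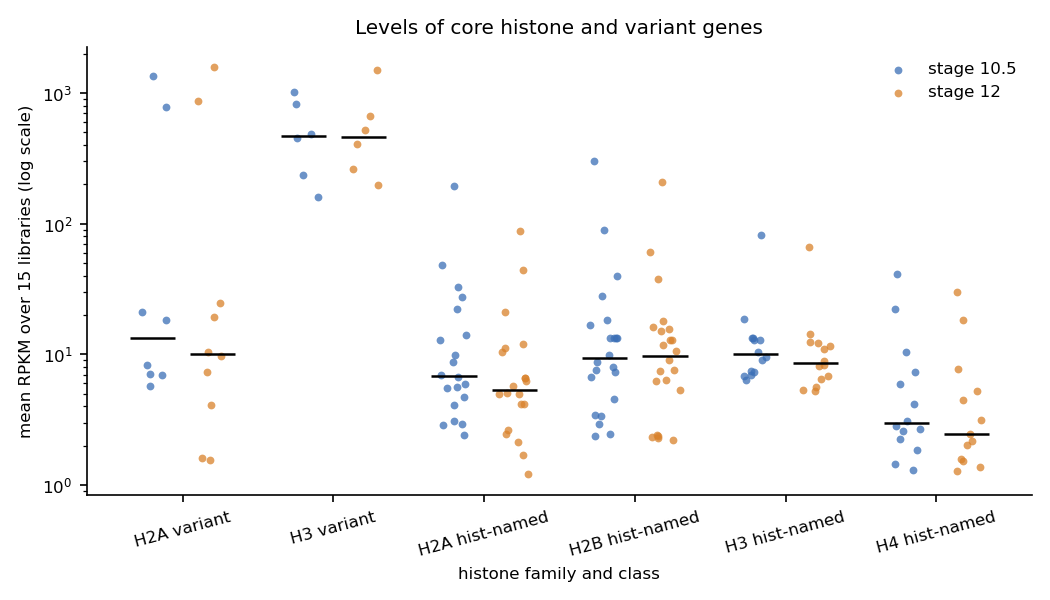
Mean RPKM of each histone gene over the 15 libraries of a stage, on a log scale, by family and class, with a bar at the median of each column. The genes h2afz.L and h2afz.S and the H3.3 models lie at 161 RPKM or more at both stages, while the medians of the hist-named families lie at or below 10 RPKM.

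Homeologs differed most in the H2B pair LOC733561. The S copy averaged 302 RPKM and the L copy 28.1 at stage 10.5, a ratio of 10.8, and the ratio was 13.5 at stage 12. In single libraries the ratio ran from 4.18 to 23.2 at stage 10.5 and from 3.45 to 72.4 at stage 12. The ratio of means mixes unlike libraries. At stage 10.5 the L copy had 47.5 to 58.0 RPKM in the libraries of replicate number 1 and 11.9 to 21.2 RPKM in the others. The models also differ in length, at 388 bases for S and 741 for L. Summed over the 15 libraries of stage 10.5 they held 7559 and 1421 reads. The narrowest pair was h2afv, with an L over S ratio of 0.989 at stage 10.5 and 1.06 at stage 12. In the h2afz pair the L copy was the higher in every library, at 1.57 to 1.86 times the S copy at stage 10.5 and 1.55 to 1.94 times at stage 12.

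Dorsal half-embryos at stage 10.5 differed from whole embryos in 5 histone genes, 3 higher and 2 lower. Both that were lower are H2A genes. Two-sided tests used limma on log2(RPKM + 1) over all genes of a stage, with a call wherever the p adjusted by the Benjamini-Hochberg method was at most 0.05. The same rule called 1.01% of 16672 genes higher and 3.21% lower.

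The H2A gene hist1h2aa.L, whose closest human gene is listed as HIST2H2AB, had 153, 147 and 185 RPKM in dorsal half-embryos, against 209, 246 and 270 RPKM in whole embryos. Every dorsal library lay below every whole-embryo library. The difference was -0.58 ± 0.12 on the log2 scale (SE, adjusted p = 0.0252), and -0.50 under upper-quartile scaling, which ended the call (adjusted p = 0.0574). In ventral half-embryos the gene had 186, 164 and 217 RPKM and the difference from whole embryos was -0.36 (adjusted p = 0.153), and for the mean of left and right it was -0.35 (adjusted p = 0.0890). All 12 half-embryo libraries were below the whole-embryo library of their own number, at stage 10.5 and again at stage 12.

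The second H2A gene called lower, Xelaev18014220m, is closest to human HIST1H2AA. That gene encodes TH2A, which in mouse is found in testis and oocytes. It had 29.1, 21.2 and 14.99 RPKM in dorsal half-embryos, against 67.0, 47.1 and 41.9 RPKM in whole embryos. The difference was -1.24 ± 0.24 (SE, adjusted p = 0.0205). The other half-embryo libraries lay between 23.5 and 38.2 RPKM, so no half-embryo library of this stage overlapped with whole embryos. It was the 1 histone gene of 84 for which all 12 half-embryo libraries lay below all 3 whole-embryo libraries, where 6.66% of all genes did so. A further model closest to HIST1H2AA, Xelaev18014222m, was looked at after its values were seen. It had 25.2, 23.9 and 12.0 RPKM in dorsal half-embryos, against 52.2, 42.8 and 26.0 RPKM in whole embryos, and was not called (difference -0.96, adjusted p = 0.154). With the replicate number as a block its adjusted p was 5.87e-04.

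Higher genes were 1 of H3 and 2 of H2A, all at low levels. The H3 model Xelaev18028537m had 7.46, 9.41 and 8.74 RPKM in dorsal half-embryos, against 4.31, 3.59 and 3.57 RPKM in whole embryos, a difference of 0.98 ± 0.20 (SE, adjusted p = 0.0211). This model is 3314 bases long, far longer than the 411 bases common among H3 models, and held 44 to 145 reads per library. The H2A gene Xetrov90022557m.L had 10.3, 10.1 and 13.9 RPKM in dorsal half-embryos, against 6.35, 6.65 and 7.10 RPKM in whole embryos, a difference of 0.68 ± 0.17 (SE, adjusted p = 0.0428). It held 18 to 54 reads per library. The H2A model Xelaev18026403m had 17.2, 17.6 and 14.99 RPKM in dorsal half-embryos, against 12.4, 10.4 and 9.97 RPKM in whole embryos, a difference of 0.57 ± 0.14 (SE, adjusted p = 0.0413). Dorsal and whole-embryo libraries did not overlap for any of these genes. The half-embryos lay above all 3 whole-embryo libraries in all 12 libraries for 4 of 84 histone genes, where 2.17% of all genes did so. These were Xelaev18028537m, Xetrov90022557m.L, the H2A model Xelaev18028553m and the H2B model Xelaev18001415m, the last named after its values were seen.

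The labels name each whole-embryo library as the control of the half-embryos with its number, and libraries of the same number deviated together. With the number as a block, 17 histone genes were called higher and 4 lower in dorsal half-embryos, where 7.71% and 17.6% of all genes were called. Of the 17, 13 were hist-named and 4 were variants. Among the variants was h2afz.L (difference 0.25, adjusted p = 0.0166 with the block, 0.192 without it). Without the block the count of 5 depended on single libraries. It was 0 without dorsal replicate 3 or whole-embryo replicate 3, 1 without dorsal replicate 2, 2 without dorsal replicate 1 or whole-embryo replicate 1, and 3 without whole-embryo replicate 2.

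**Figure D2:**
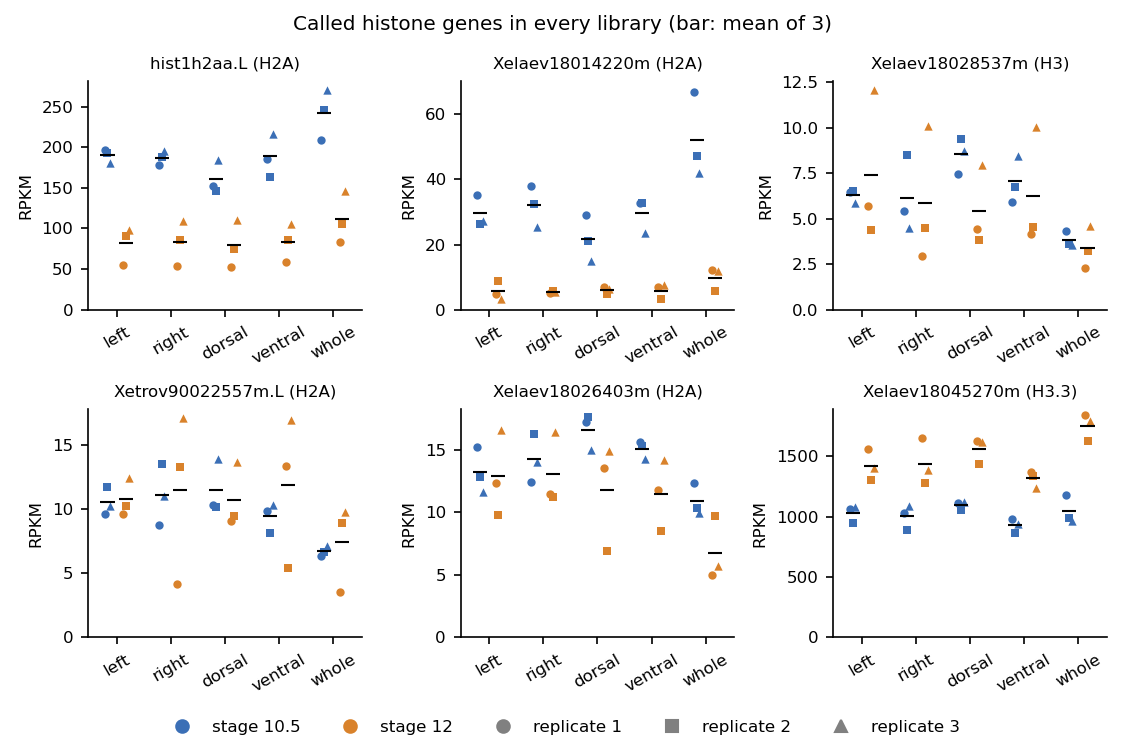
RPKM of the 6 histone genes called in any comparison with whole embryos, in every library, by group and stage, with marker shapes for replicate numbers and a bar at the mean of 3. At stage 10.5 hist1h2aa.L and Xelaev18014220m lie lower in dorsal half-embryos than in whole embryos, and at stage 12 Xelaev18045270m lies at 1240 to 1370 RPKM in ventral half-embryos and at 1627 to 1840 RPKM in whole embryos.

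Ventral half-embryos had no called histone gene against whole embryos at stage 10.5 without the block. Of all genes 0.654% were called higher and 1.40% lower. At an unadjusted p under 0.05, 13 of 84 histone genes were higher and 3 lower, beside 5.91% and 11.7% of all genes. The smallest p belonged to the H3 model Xelaev18028537m, with 5.94, 6.73 and 8.47 RPKM in ventral half-embryos, against 4.31, 3.59 and 3.57 RPKM in whole embryos (difference 0.73 ± 0.20 SE, adjusted p = 0.0759). Next was the H2A model Xelaev18028553m, with a difference of 1.30 ± 0.35 (SE, adjusted p = 0.0763). The block raised the counts to 10 higher and 4 lower, beside 5.94% and 11.4% of all genes.

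The mean of left and right half-embryos differed from whole embryos in 1 histone gene at stage 10.5. Xetrov90022557m.L, an H2A gene, had 9.63, 11.7 and 10.3 RPKM in left and 8.77, 13.5 and 10.98 RPKM in right half-embryos, against 6.35, 6.65 and 7.10 RPKM in whole embryos. No half-embryo library overlapped with whole embryos, and the difference was 0.61 ± 0.15 (SE, adjusted p = 0.0471). Background rates were 0.876% higher and 1.84% lower. The call was lost without any 1 library of whole embryos or of left half-embryos, and without right replicate 2 or 3, and a second gene was called without right replicate 1. With the block, 9 histone genes were higher and 4 lower, where 7.41% and 14.6% of all genes were.

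These comparisons share the 3 whole-embryo libraries, so their values stand side by side and do not support one another. Differences of the 84 histone genes had a median of 0.37 in dorsal, 0.35 in ventral and 0.20 in the mean of left and right half-embryos, while the medians of all genes were -0.09, -0.07 and -0.07. In dorsal half-embryos 67 of 84 differences were above 0, in ventral half-embryos 65 and in the mean of left and right 63. Since the medians of all genes were below 0, the larger part of all genes lay below 0 in each. Near-identical copies may share reads, so these are not counts of independent genes. The H2B differences lay above 0 in 19 of 22, 19 of 22 and 16 of 22 models, and the hist-named H2A genes in 12 of 20 in each comparison. All 8 H2A variants lay above 0 in each, by 0.01 to 0.92, and none was called without the block. H3.3 models stayed nearest to 0, with medians of 0.13, 0.02 and 0.11. Whole-embryo libraries were also the shallowest of the stage, and the part of depth in these small differences was not tested.

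**Figure D3:**
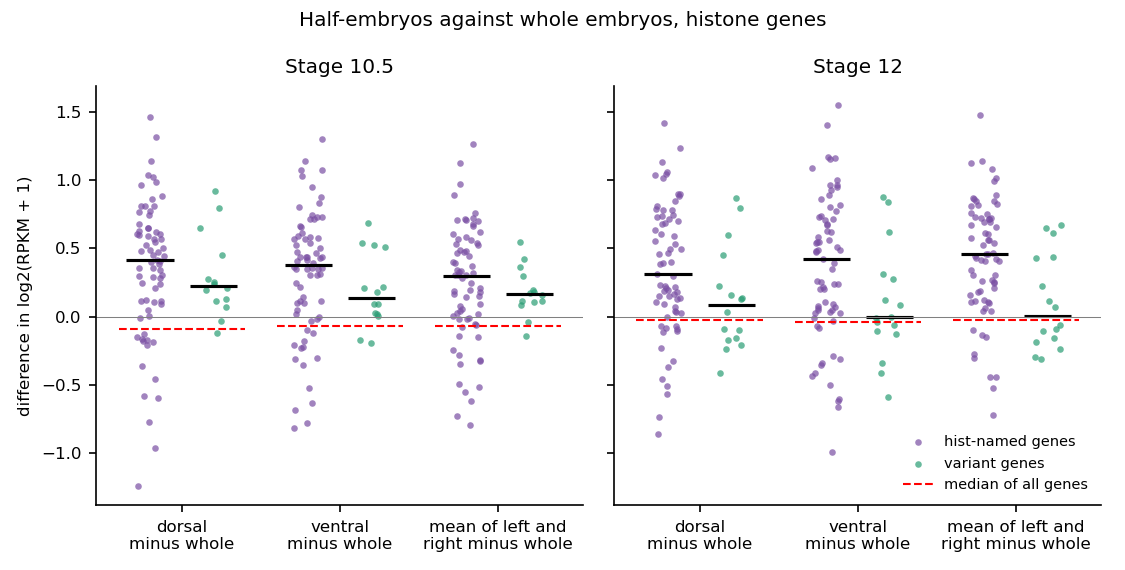
Difference in log2(RPKM + 1) between half-embryos and whole embryos for each histone gene, by stage and comparison, with black bars at the median of a class and a dashed line at the median of all genes. Hist-named medians lie between 0.29 and 0.46 in the 6 comparisons, and variant medians between -0.01 and 0.22.

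At stage 12 the 1 call against whole embryos was an H3.3 model of 363 bases in ventral half-embryos. Xelaev18045270m had 1370, 1338 and 1240 RPKM in ventral half-embryos, against 1840, 1627 and 1788 RPKM in whole embryos, and these did not overlap. The difference was -0.41 ± 0.10 (SE, adjusted p = 0.0423), where 1.44% of all genes were called higher and 2.51% lower. In dorsal half-embryos the gene had 1627, 1436 and 1616 RPKM and a difference from whole embryos of -0.17 (adjusted p = 0.470), and for the mean of left and right the difference was -0.30 (adjusted p = 0.126). Every half-embryo library was below the whole-embryo library of its own number. At stage 10.5 the ventral difference of this gene was -0.17 (adjusted p = 0.394), and its change between stages of -0.24 was not called (adjusted p = 0.908). The call was lost under upper-quartile scaling (-0.36, adjusted p = 0.153), without any 1 ventral library and without whole-embryo replicate 1 or 3. Without whole-embryo replicate 2 the count was 2. With the block it was 6 higher and 2 lower, beside 4.82% and 6.30% of all genes. Of the 2 lower genes 1 was hist1h2aa.L, at 58.7, 85.6 and 106 RPKM in ventral half-embryos, against 82.8, 105 and 146 RPKM in whole embryos. No other H3.3 model was called here without the block. Xelaev18044072m went the other way, with a ventral mean of 680 RPKM against 619 in whole embryos. Means were 459 against 504 RPKM for Xelaev18047575m and 434 against 436.5 for Xelaev18046713m. They were 266 against 273 RPKM for Xelaev18026291m and 202 against 211 for Xelaev18028634m.

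No histone gene was called without the block in dorsal half-embryos against whole embryos at stage 12, where 0.378% of all genes were higher and 0.436% lower. At an unadjusted p under 0.05, 5 of 85 were higher and none lower, beside 6.74% and 8.41% of all genes. First came h2afv.S, with a difference of 0.79 ± 0.25 (SE, adjusted p = 0.147), and LOC100487632.1, closest to the replacement histone H2A.J, with 0.60 ± 0.25 (SE, adjusted p = 0.271). With the block 1 was higher and 1 lower, beside 3.17% and 3.50% of all genes.

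The mean of left and right half-embryos had no call without the block at stage 12 either, where 0.731% of all genes were called higher and 0.648% lower. At an unadjusted p under 0.05, 5 of 85 histone genes were higher and 2 lower, beside 7.64% and 8.45% of all genes. Smallest p-values belonged to the H2B model Xelaev18002636m (difference 1.47 ± 0.37 SE, adjusted p = 0.0694) and h2afv.L (0.67 ± 0.19 SE, adjusted p = 0.0990). Values of Xelaev18002636m were near the floor, at 1.72 to 4.93 RPKM in left and right half-embryos, against 0, 1.86 and 0 in whole embryos. Without whole-embryo replicate 2, 1 gene was called. With the block 6 were higher and 2 lower, beside 4.10% and 4.38% of all genes. LOC100487632.1, named above by its p, lay at 5.26 to 11.8 RPKM in half-embryos, against 4.54, 4.16 and 4.70 RPKM in whole embryos. It was the 1 of 85 histone genes for which all 12 half-embryo libraries lay above all 3 whole-embryo libraries. Of all genes 1.95% did so, and 2.49% lay below, where no histone gene did.

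Between half-embryos no histone gene was called. Dorsal against ventral gave 0 of 84 at stage 10.5 and 0 of 85 at stage 12 without the block, where 0.990% and 3.76% of all genes were called in either direction. At an unadjusted p under 0.05 there were 1 higher at stage 10.5 and 3 higher at stage 12, beside 2.39% and 5.33% of all genes. None was lower, beside 2.49% and 5.57% of all genes. First at both stages was the H3.3 gene Xelaev18045270m. It had 1109, 1051 and 1124 RPKM in dorsal half-embryos, against 977, 868 and 938 RPKM in ventral ones at stage 10.5, and 1627, 1436 and 1616 RPKM against 1370, 1338 and 1240 RPKM at stage 12. Dorsal libraries lay above ventral ones at both stages without overlap, by 0.24 ± 0.10 (SE, adjusted p = 0.772) and 0.24 ± 0.10 (SE, adjusted p = 0.360). Second came Xelaev18047575m, also H3.3, at stage 10.5 (0.22, adjusted p = 1) and the H2B model Xelaev18032685m at stage 12 (1.34, adjusted p = 0.423).

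Left against right gave no call at either stage, and 0% of all genes were called there. At an unadjusted p under 0.05, 2 histone genes were higher and 1 lower in left half-embryos at stage 10.5, beside 0.354% and 0.288% of all genes. At stage 12, 1 was higher and 1 lower, beside 0.596% and 0.808%. The first genes were the H4 model Xelaev18001413m (1.23, adjusted p = 1) and the H2B model Xelaev18002637m (-1.20, adjusted p = 1) at stage 10.5, and h2afv.S (-0.63, adjusted p = 1) and the H2B gene LOC100495041.1 (1.77, adjusted p = 1) at stage 12. The mean of left and right against the mean of dorsal and ventral gave no call, beside 0.0240% of all genes at stage 10.5 and 0.0128% at stage 12. There, 2 histone genes were higher and 1 lower at an unadjusted p under 0.05 at stage 10.5, beside 1.58% and 1.10% of all genes. None was at stage 12, beside 2.39% and 1.65%. The H4 gene Xetrov90015406m.L came first at both stages, with -1.07 (adjusted p = 1.000) at stage 10.5 and 0.78 (adjusted p = 1) at stage 12, followed by the H4 model Xelaev18026398m (0.61, adjusted p = 1.000) and the H2A model Xelaev18001359m (0.75, adjusted p = 1). The block called no histone gene in any of these comparisons. The genes just named averaged 2.26 to 7.29 RPKM at stage 10.5. At stage 12 LOC100495041.1 had 21.0, 18.2 and 7.79 RPKM in left half-embryos, against 0, 12.8 and 5.86 RPKM in right ones.

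No change of a difference between the stages was called for any of the 83 histone genes in both tables. In 1 fit of all 30 libraries, limma without the block called 0% of 14947 genes for 5 of the 6 comparisons and 0.0602% for ventral against whole embryos. At an unadjusted p under 0.05 there were 1 to 3 of the 83 histone genes per comparison, beside 0.776% to 6.25% of all genes, and none was called with the block. The smallest unadjusted p, 0.00386, belonged to the H4 gene Xetrov90015406m.L, a gene at 2.26 RPKM at stage 10.5, for the mean of left and right against the mean of dorsal and ventral (change of 1.84, adjusted p = 1.000).

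Levels at the stages are set side by side as a description, since each table was normalized on its own, and no test was made. In whole embryos 52 of 69 hist-named genes had a lower mean RPKM at stage 12 than at stage 10.5, and 10 of 14 variants a higher one. Of all genes, 9711 of 14948 (65.0%) had a lower mean and 5237 (35.0%) a higher one. The median log2 ratio of stage 12 over stage 10.5, with 1 added to each mean, was -0.40 for hist-named genes, 0.30 for variants and -0.25 for all genes. Among the whole-embryo libraries, 6 histone genes lay higher at stage 12 without overlap and 12 lower, which is 7.23% and 14.5% of 83, where 14.4% and 34.4% of all genes did so.

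Over all 15 libraries of each stage, 1 histone gene lay higher at stage 12 without overlap and 3 lower, where 2.30% and 9.87% of all genes did. The higher one was the H3.3 gene Xelaev18045270m, at 1240 to 1840 RPKM at stage 12, against 868 to 1177 RPKM at stage 10.5. The lower ones were hist1h2aa.L, Xelaev18014220m and Xelaev18014222m, the H2A genes described above. Gene hist1h2aa.L lay at 52.6 to 146 RPKM at stage 12, against 147 to 270 RPKM at stage 10.5. In whole embryos Xelaev18014220m had 12.0, 5.64 and 11.9 RPKM at stage 12, against 67.0, 47.1 and 41.9 RPKM at stage 10.5. Xelaev18014222m had 8.05, 2.51 and 4.33 RPKM at stage 12, against 52.2, 42.8 and 26.0 RPKM at stage 10.5. The ratio of whole-embryo means, stage 12 over stage 10.5, was 0.189 for Xelaev18014220m and 0.123 for Xelaev18014222m.

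**Figure D4:**
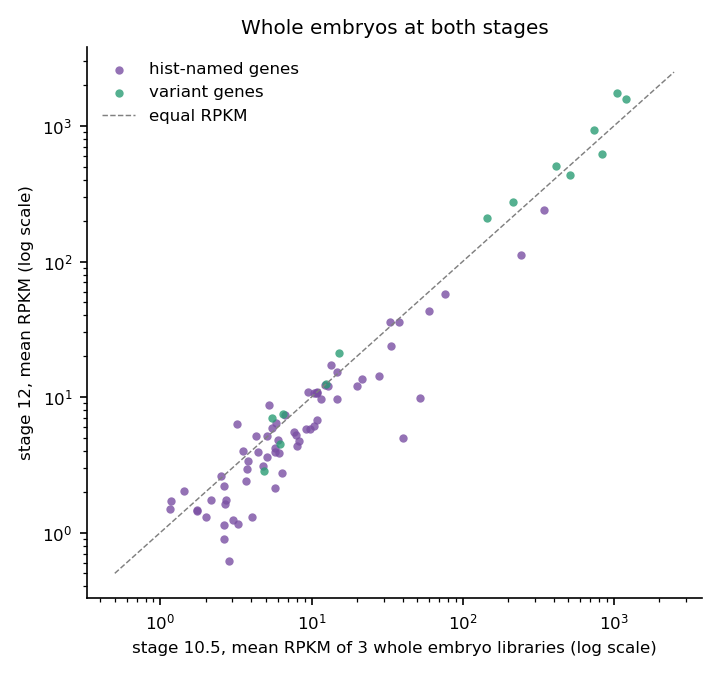
Mean RPKM of each histone gene in 3 whole-embryo libraries at stage 12 against stage 10.5, on log axes, with the line of equal RPKM. The 2 hist-named points farthest below the line among genes above 10 RPKM at stage 10.5 are Xelaev18014220m (9.84 RPKM at stage 12, 52.0 at stage 10.5) and Xelaev18014222m (4.97 at stage 12, 40.3 at stage 10.5).

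For some histone genes the libraries of 1 replicate number lay apart from all others. Their share was below that of all genes at stage 10.5 and above it at stage 12. The 5 libraries of 1 number lay outside the range of the other 10 for 6 of 84 histone genes (7.14%) at stage 10.5 and 11 of 85 (12.9%) at stage 12, where 15.6% and 9.46% of all genes did. The H2B gene LOC733561.L had 47.5 to 58.0 RPKM in the libraries numbered 1 at stage 10.5, against 11.9 to 21.2 RPKM in the others, and 28.1 to 39.5 against 3.16 to 12.7 RPKM at stage 12. The H2B gene LOC100497082.1 had 102 to 172 RPKM in the libraries numbered 2 at stage 10.5 and 37.6 to 89.8 RPKM elsewhere. The H3.3 gene Xelaev18044072m had 586 to 667 RPKM in those same libraries and 679 to 1071 RPKM elsewhere. The labels do not say whether a number stands for the same source at both stages. At stage 12 the summed RPKM of hist-named genes was 582 to 814 in the libraries numbered 1 and 1091 to 1405 in those numbered 3.

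Genes that supply and handle histones were taken from a fixed list of chaperones, deposition factors and factors of histone message processing, of which 72 were tested at stage 10.5 and 71 at stage 12. At stage 10.5, 3 were higher and 1 lower in dorsal half-embryos than in whole embryos, 3 higher and 1 lower in ventral ones, and 2 higher in the mean of left and right. At stage 12 the counts were 1 higher in dorsal, 2 higher and 1 lower in ventral and 5 higher in the mean of left and right. The blocked fit gave counts at stage 10.5 of 17 higher and 9 lower in dorsal, 10 and 7 in ventral and 15 and 9 in the mean of left and right. At stage 12 the block gave 10 higher and none lower in dorsal, 9 and 3 in ventral and 14 and none in the mean of left and right. The shares of all genes called with and without the block are those given above for the same comparisons. List medians lay between 0.02 and 0.10 in these 6 comparisons, and the medians of all genes between -0.09 and -0.02.

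NASP, a chaperone of H3 and H4, had the largest called differences from whole embryos in the list. Its model Xelaev18023070m had 70.3, 90.6 and 91.1 RPKM in dorsal and 79.9, 87.5 and 84.8 RPKM in ventral half-embryos, against 25.9, 64.1 and 29.1 RPKM in whole embryos at stage 10.5. The differences were 1.17 ± 0.24 (SE, adjusted p = 0.0235) and 1.18 ± 0.24 (SE, adjusted p = 0.0293), and that of the mean of left and right was 1.32 ± 0.21 (SE, adjusted p = 0.0134). At stage 12 the left libraries had 51.8, 56.5 and 90.6 RPKM and the right ones 55.6, 93.3 and 91.8 RPKM, against 4.03, 35.9 and 20.4 RPKM in whole embryos (difference 2.18 ± 0.46 SE, adjusted p = 0.0411). Whole-embryo replicate 2 stood above the other two whole-embryo libraries at both stages, and every half-embryo library stood above it. The second NASP model, Xelaev18025187m, was higher in the mean of left and right at stage 10.5 (0.94, adjusted p = 0.0407) and at stage 12 (1.76, adjusted p = 0.0452), and in ventral half-embryos at stage 12 (1.74, adjusted p = 0.0472). At stage 10.5 its whole-embryo libraries had 150, 302 and 131 RPKM, and replicate 2 of these overlapped with right half-embryos, at 375, 372 and 297 RPKM. At stage 12 it had 251 to 349 RPKM in half-embryos, against 31.5, 220 and 83.8 RPKM in whole embryos.

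Other called supply genes differed by less. NAP1L1, a chaperone of H2A and H2B (model Xelaev18017565m), was higher in dorsal half-embryos at stage 10.5 (0.33, adjusted p = 0.0481) and in all 3 comparisons with whole embryos at stage 12, by 0.47 in dorsal (adjusted p = 0.0470), 0.45 in ventral (adjusted p = 0.0227) and 0.39 in the mean of left and right (adjusted p = 0.0452). RUVBL1 and RUVBL2 are ATPases of complexes that exchange H2A.Z. The RUVBL2 model Xelaev18036125m was higher in dorsal (0.45, adjusted p = 0.0357) and ventral half-embryos (0.46, adjusted p = 0.0412) at stage 10.5, and ruvbl1.S in ventral ones (0.50, adjusted p = 0.0499). At stage 12 mcm2.S, a helicase subunit that also binds H3 and H4, was higher in the mean of left and right (0.78, adjusted p = 0.0386). The H3 and H4 chaperone gene spty2d1.S was lower in dorsal half-embryos at stage 10.5 (-0.67, adjusted p = 0.0439). The gene npat.S, of the histone coactivator NPAT, had 5.46, 6.53 and 5.38 RPKM in ventral half-embryos, against 9.69, 8.04 and 10 RPKM in whole embryos at stage 10.5 (-0.59, adjusted p = 0.0499). A call in 1 group does not set that group apart from the other half-embryos. At stage 10.5 the 12 half-embryo libraries of spty2d1.S lay at 13.4 to 20.1 RPKM, against 21.7 to 27.9 in whole embryos. Those of the NAP1L1 model lay at 178.3 to 215.5 against 150.2 to 166, and of ruvbl1.S at 25.6 to 33.8 against 20.6 to 23.2. For npat.S the ranges overlapped, at 5.38 to 8.10 against 8.04 to 10. At stage 12 mcm2.S lay at 4.95 to 7.31 against 2.66 to 4.37.

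The stem-loop binding protein gene slbp.L was the 1 gene of the supply list called in dorsal against ventral half-embryos, which was at stage 12 without the block. It had 68.8, 71.7 and 57.9 RPKM in dorsal half-embryos, against 33.6, 44.9 and 38.2 RPKM in ventral ones, a difference of 0.76 ± 0.15 (SE, adjusted p = 0.0103). The groups did not overlap. It was also lower in ventral half-embryos than in whole embryos, which had 67.1, 58.7 and 50.4 RPKM (-0.58 ± 0.15 SE, adjusted p = 0.0462). At stage 10.5 it had 91.5, 119 and 103 RPKM in dorsal half-embryos, against 60.4, 94.9 and 59.9 RPKM in ventral ones, which overlapped. It was not called there without the block (difference 0.56, adjusted p = 0.531) and was higher with it (adjusted p = 0.00970), beside 1.13% of all genes. As given above, no histone gene was called in dorsal against ventral half-embryos at either stage, where 0.990% and 3.76% of all genes were. Hist-named values cover only messages that passed the poly(A) selection.

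**Figure D5:**
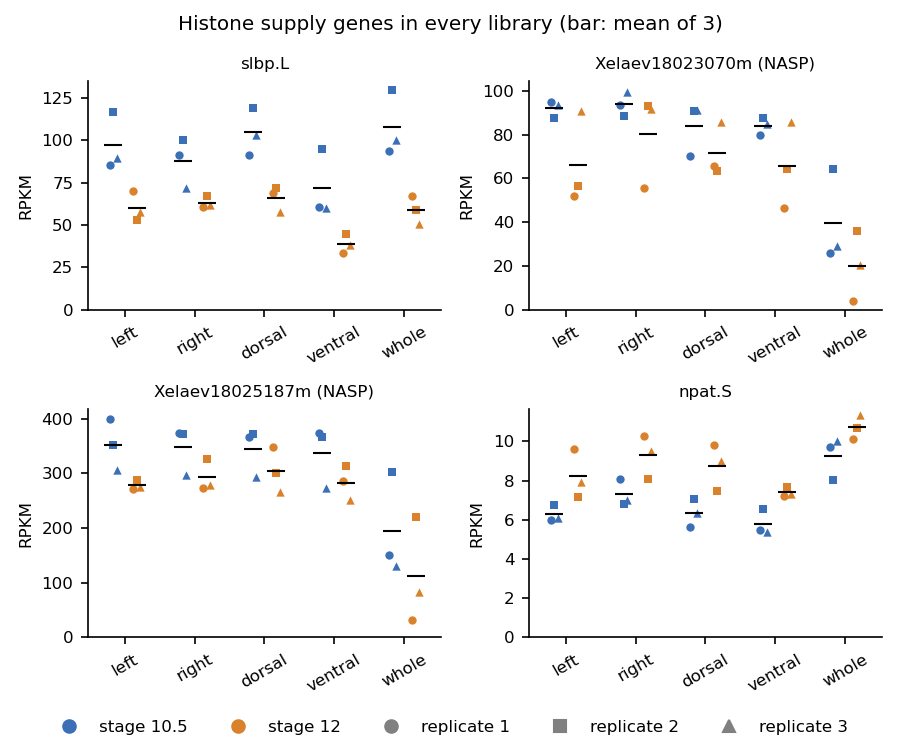
RPKM of slbp.L, both NASP models and npat.S in every library, by group and stage, with marker shapes for replicate numbers and a bar at the mean of 3. At stage 12 slbp.L lies at 33.6 to 44.9 RPKM in ventral half-embryos and at 57.9 to 71.7 RPKM in dorsal ones, and both NASP models are lowest in whole embryos.

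Genes of DNA replication in S phase were described from a second list, with 58 tested at stage 10.5 and 57 at stage 12. At stage 10.5, 2 were higher and 2 lower in dorsal half-embryos than in whole embryos, 1 higher and 2 lower in ventral ones, and 2 higher and 4 lower in the mean of left and right. With the block these counts were 11 and 11, 9 and 10, and 12 and 11. Shares of all genes called higher and lower were 1.01% and 3.21% in dorsal and 0.654% and 1.40% in ventral. For the mean of left and right they were 0.876% and 1.84%. With the block these shares were 7.71% and 17.6%, 5.94% and 11.4%, and 7.41% and 14.6%. The clamp gene PCNA (model Xelaev18018556m) was higher in dorsal half-embryos (0.74, adjusted p = 0.0396) and in the mean of left and right (0.86, adjusted p = 0.0179), and rrm1.S, of ribonucleotide reductase, was higher in dorsal (0.57, adjusted p = 0.0380), in ventral (0.57, adjusted p = 0.0499) and in the mean of left and right (0.60, adjusted p = 0.0237). For PCNA all 12 half-embryo libraries, ventral ones among them, lay at 164.7 to 298.6 RPKM, against 104.7 to 161.6 RPKM in whole embryos. The clamp loader gene rfc1.L was lower in dorsal (-1.23, adjusted p = 0.0125), in ventral (-1.10, adjusted p = 0.0188) and in the mean of left and right (-1.09, adjusted p = 0.0136), and the helicase gene mcm3.L was lower in the same comparisons, by -1.01, -0.78 and -0.76 (adjusted p = 0.00813, 0.0172 and 0.0134).

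At stage 12, 2 genes of the replication list were higher in dorsal half-embryos, 2 in ventral ones and 6 in the mean of left and right, and without the block none was lower. With the block 8 were higher and 1 lower in dorsal, 3 and 5 in ventral and 15 and 2 in the mean of left and right. Shares of all genes called higher and lower were 0.378% and 0.436% in dorsal and 1.44% and 2.51% in ventral. For the mean of left and right they were 0.731% and 0.648%. With the block these shares were 3.17% and 3.50%, 4.82% and 6.30%, and 4.10% and 4.38%. The helicase genes mcm4.L and mcm4.S were higher in dorsal (0.92 and 1.03, adjusted p = 0.0304 and 0.0131), in ventral (0.74 and 0.71, adjusted p = 0.0341 and 0.0249) and in the mean of left and right (0.92 and 1.02, adjusted p = 0.0157 and 0.00551). The single-strand binding protein gene rpa1.L was higher in the mean of left and right (0.78, adjusted p = 0.0242), as was the PCNA model (0.68, adjusted p = 0.0355). All 12 half-embryo libraries of rpa1.L lay at 7.78 to 13.1 RPKM, against 5.26 to 6.25 RPKM in whole embryos. Medians of this list in the 3 comparisons were 0.28, 0.10 and 0.28 at stage 12 and 0.01, 0.02 and 0.09 at stage 10.5. No gene of the list was called between half-embryos without the block. In dorsal against ventral half-embryos at stage 12, 8 of 57 were higher and none lower at an unadjusted p under 0.05, beside 5.33% and 5.57% of all genes. The block called 1 gene of the list higher there, beside 2.90% of all genes.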

How the data were processed

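Per the file headers, each stage has 1 deposited table in RPKM (reads scaled by the length of a model and by library depth), for JGI9.1 laevis models whose average exceeds 1, with human symbols found by protein search. Per the submitters' processing notes, TopHat2 2.09 and DESeq were used, with the counting tool not given in the sources used here. Whole reads were recovered from the common step of each row (relative tolerance 3e-09, 100% of genes). Model lengths were inferred from the same step and not read from an annotation. Reads and lengths serve to describe depth and models, and the tests used the RPKM values. The count test planned was replaced by limma 3.58.1 (R 4.3.3, trend) on log2(RPKM + 1), with genes kept where 3 or more libraries reached an RPKM of 1. This kept 16672 and 15594 genes, all 84 and 85 histone genes among them. The 15 libraries of a stage were fitted together. With 1 added, changes of low genes are understated.

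Each control's label names the half-embryos of its number, and same-numbered libraries deviated together (correlations of at least 0.414 at stage 10.5 and 0.274 at stage 12 over 30 pairs each), so the fit with that number as a block stands beside results it changed. Named were called genes, the 2 highest genes per family and class, the 2 smallest p-values where nothing was called, the widest and narrowest homeolog pair, and up to 4 called genes per pathway list and comparison. Members and lists were chosen with earlier results of these data known. The fit was tested on simulated data in which same-numbered libraries did not deviate together, so that test does not bear on the block. Its set changes were larger than those of the called histone genes. Coordinates and sequences were not used here.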

Additional observations from a re-analysis of the deposited data

How the results depend on the processing

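The counts of called histone genes depended most on the replicate block. With the block they were 21 for dorsal, 14 for ventral and 13 for the mean of left and right against whole embryos at stage 10.5, and 2, 8 and 8 at stage 12, against 5, 0 and 1 and 0, 1 and 0 without it. The block changed no other count of histone genes. For ventral against whole embryos at stage 12 the count was 2 with a pseudocount of 0.1 and 0 under upper-quartile scaling. Leaving out 1 library gave 0 to 3 for dorsal and 0 to 2 for the mean of left and right against whole embryos at stage 10.5, and 0 to 2 for ventral and 0 to 1 for the mean of left and right at stage 12. Dropping the filter on low values left every count within 1.5 times. None of the 7 called differences changed sign under any alternative run. Upper-quartile scaling ended 2 of the 7 calls, those of hist1h2aa.L in dorsal half-embryos at stage 10.5 (-0.50, adjusted p = 0.0574) and of Xelaev18045270m. The cause of these changes was not tested. With a median of 17 and 10 reads per library, single hist-named genes allow only coarse statements.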
